A study of Mus musculus with 4 samples.

Results

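Chromatin regulators were compared between 2 populations of the mouse melanoma line B16-F10, which had been separated by the amount of the receptor Met on the cell surface. The members were taken by symbol: RefSeq mouse genes whose symbol starts with Kdm, Kmt, Hdac, Kat, Chd, Arid, Brd or Ezh and a digit, or with Smarc or Setd. Of 106 such genes, 94 had a probe that could be named on the array, with 143 probes in all. A gene was kept where its brightest probe stood well above background on both Met-low or on both Met-high arrays, which left 88 members among 11957 genes tested. The genes Arid3c, Arid5b, Hdac9, Kdm4d, Kdm5d and Smarca1 did not pass that filter. Of the 88 members, 86 were well above background on all 4 arrays, and Arid4b and Kdm7a passed through the Met-low arrays only. No probe could be named here for Kmt2a, Chd3, Chd7, Setd1b or Setdb2, nor for 7 further entries that are pseudogenes or other transcripts. The symbol rule also took the pseudogene Smarca5-ps and the gene Brd8dc, and leaving both out, an alternative chosen after seeing the data, kept the median ratio of the members at 0.04.

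B16-F10 is a highly metastatic line from a mouse skin melanoma, and no gene was altered and no agent was added in either population. The populations were separated in a cell sorter and grown apart for 3 days before RNA extraction. There were 2 independently prepared samples of each population, and each was hybridised to its own 1-colour Agilent array. Both came from the same line, and the names describe the cells at the sort, before that culture.

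Chromatin regulators act on the nucleosome, the unit of DNA wound around histone proteins. Acetyltransferases and methyltransferases write marks on histone tails, deacetylases and demethylases remove them, and bromodomain proteins bind acetylated histones. Remodellers of the SWI/SNF, ISWI and CHD families use ATP to slide, evict or exchange nucleosomes. In melanocytes the SWI/SNF ATPases are known as partners of the transcription factor MITF, and the demethylase KDM5B is known from melanoma as a marker of slowly cycling cells.

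Each level below is a log2 signal relative to the 75th percentile of all probes on the same array, and each ratio is the Met-high mean minus the Met-low mean on that log2 scale. Levels of different genes are not set against each other, since probes differ in brightness. Between 50.01% and 53.6% of spots were well above background, and 0 spots were saturated. All 7 melanocyte genes listed (Pmel, Mlana, Tyr, Tyrp1, Dct, Mitf and Sox10) were well above background on all 4 arrays, with ratios between -0.14 and 0.53. Of 8 markers of leukocytes, endothelium, keratinocytes and fibroblasts with a probe, Cd3e was well above background on all 4 arrays. Pecam1 and Krt14 were so on 3 arrays, Krt5 on 2, Col1a1 on 1, and Ptprc, Cdh5 and Pdgfra on none. Met itself measured -0.26 and -0.89 in Met-low and 1.03 and -0.43 in Met-high, so the populations overlapped (ratio 0.87, adjusted p = 0.333, limma). The arrays lay on 1 slide, Met-low at positions 1 and 2 and Met-high at 3 and 4, and an effect of position cannot be told apart from one of population. In RNA from whole cultures, fewer cells of a kind and less RNA per cell cannot be told apart either.

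At an adjusted p under 0.05 (limma, Benjamini-Hochberg over all genes), 3 members were lower in Met-high: the ARID protein gene Arid4a, the acetyltransferase gene Kat6b and the demethylase gene Kdm5b. That is 3.41% of the members, against 3.8% of all genes tested. No member was called higher in Met-high, against 1.93% of all genes, and in either direction 5.73% of all genes were called. At an unadjusted p under 0.05, 15 members were lower and 14 were higher in Met-high, which is 17% and 15.9% of the members against 11.9% and 14.3% of all genes. In this fit the share of members called was near that of all genes, so its counts set the members apart in neither direction. The count called higher was 1 with the normexp background correction and 3 with a mean-variance trend. With the replicate number as a block, 38 members were called in either direction, which is 43.2% against 29.7% of all genes. The labels do not say what a replicate number marks, so that fit stayed an alternative. The 3 calls also moved with single arrays: without Met-low replicate 1 there were 0 calls, without Met-low replicate 2 there were 5, and without Met-high replicate 2 there was 1 lower and 1 higher.

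**Figure D1:**
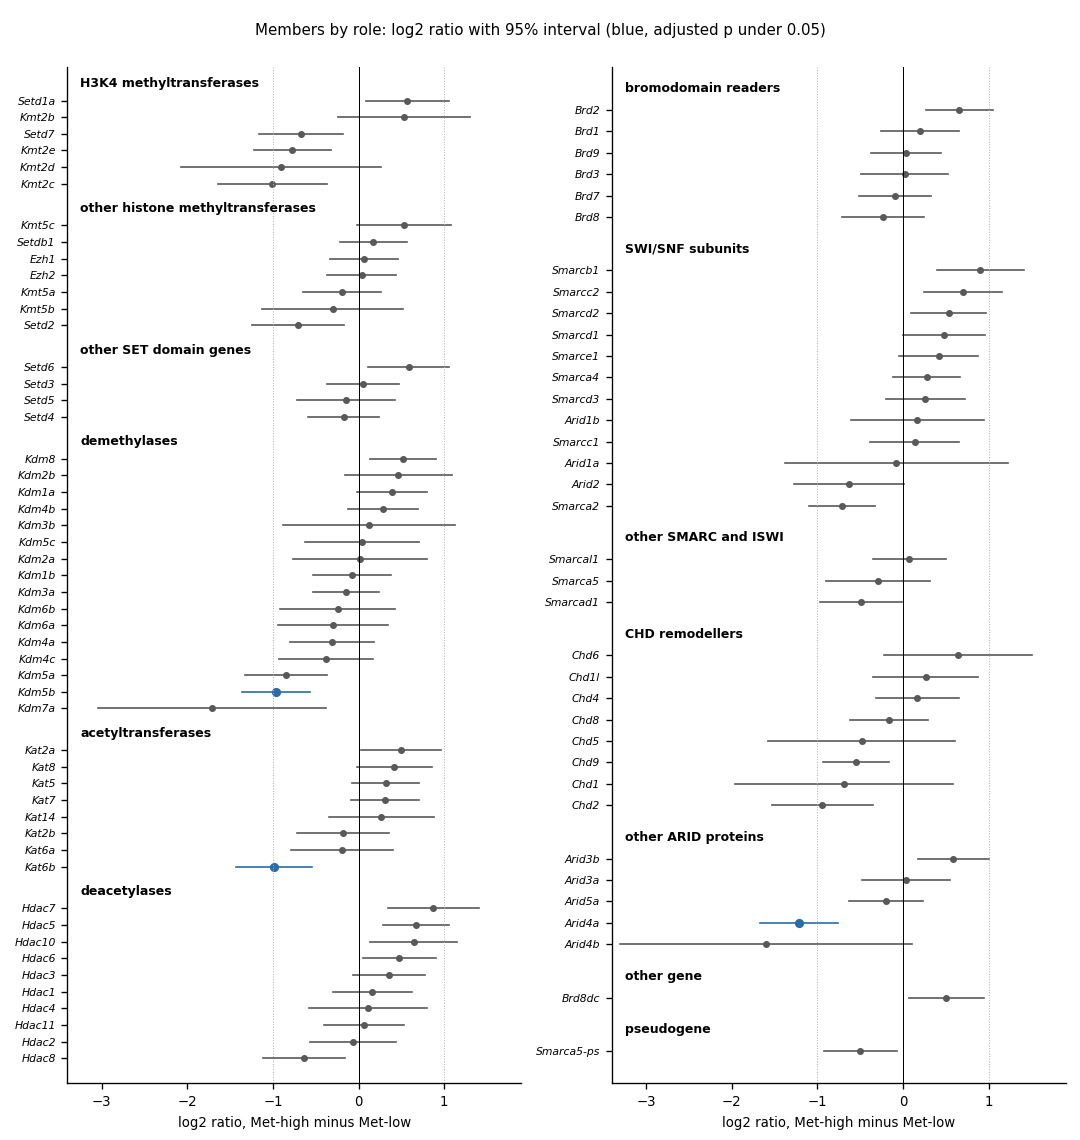
The log2 ratio of the members reported one by one (x axis, Met-high minus Met-low, point) with its 95% interval from limma (line), grouped by role. The 3 members with an adjusted p under 0.05, drawn in blue, lie below 0 at -0.96 to -1.21, and dotted lines mark a 2-fold difference.

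The median ratio of the members was 0.04, with quartiles at -0.30 and 0.36 and a range from -1.71 to 0.90. Over all genes tested the median was 0.10, with quartiles at -0.20 and 0.35. Of the members, 40 had a higher mean in Met-low, which is 45.5% against 40.5% of all genes, and 48 in Met-high, which is 54.5% against 59.5%. In 22 members both Met-high arrays lay below both Met-low arrays, which is 25% against 22.6% of all genes, and in 28 both lay above, which is 31.8% against 35.7%. The members as a group sat close to the rest of the array. Role groups are described below by their counts and medians, and no difference between them was tested.

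Promoter sequence is shown for the called genes with an entry in the RefSeq promoter table of GRCm38.p6, Kdm5b and Kat6b. It is also shown for Smarcb1, the member with the highest ratio, so that genes of both directions can be read side by side. Each run holds the 200 bases before the annotated start, 5′ to 3′ on the strand of the gene. Kdm5b lies on the plus strand at chr1:134559978-134560177, Kat6b on the plus strand at chr14:21499570-21499769, and Smarcb1 on the minus strand at chr10:75921615-75921814. Capitals mark the GC box GGGCGG, or its reverse complement CCGCCC, the letters bound by SP family factors.
Kdm5b: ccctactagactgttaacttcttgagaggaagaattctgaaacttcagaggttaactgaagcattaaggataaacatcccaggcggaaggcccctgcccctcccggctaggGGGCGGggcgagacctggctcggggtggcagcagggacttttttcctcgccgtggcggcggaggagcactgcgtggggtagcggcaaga
Kat6b: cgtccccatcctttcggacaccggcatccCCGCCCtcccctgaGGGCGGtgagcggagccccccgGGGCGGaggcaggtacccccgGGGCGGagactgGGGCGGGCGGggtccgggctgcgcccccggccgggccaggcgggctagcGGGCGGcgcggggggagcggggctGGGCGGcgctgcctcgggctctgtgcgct
Smarcb1: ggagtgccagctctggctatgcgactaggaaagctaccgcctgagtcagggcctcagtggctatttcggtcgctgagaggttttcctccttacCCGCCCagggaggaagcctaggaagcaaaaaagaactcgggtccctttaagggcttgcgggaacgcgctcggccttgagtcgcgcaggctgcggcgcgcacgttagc
A script found the GC box once in the Kdm5b run, 8 times in Kat6b, with overlaps counted, and once in Smarcb1, and these runs had a GC content of 59%, 82% and 61%. In the 250 bases before the start, 45 of 67 members with an entry held the box on either strand (67.2%), against 32.9% of 27025 promoters. Those promoters, also used for the shares below, include genes not detected here, whereas every member had passed the signal filter. The 2 sets are thus unlike, and a difference in share is not a trait of the members. All 3 runs held the box, those of the called genes and that of Smarcb1, which was not called. The ETS core CCGGAA was in 16 of the 67 (23.9%) against 12.2% of all promoters, and the E-box CACGTG in 2 (2.99%) against 6.05%. The E-box CATGTG, an MITF motif, was in 6 (8.96%) against 12.2%, and CCAAT in 26 (38.8%) against 34.5%. These are matches of letters in a window and say nothing of binding.

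Demethylases, which remove methyl groups from histone lysines, held 1 called gene. Of 16, 9 had a lower and 7 a higher mean in Met-high, with a median ratio of -0.11. Kdm5b (NM_152895), a demethylase of H3K4 (lysine 4 of histone H3) also called JARID1B, measured 0.29 and 0.13 in Met-low and -0.75 and -0.75 in Met-high. Both Met-high arrays lay below both Met-low arrays and agreed to the second decimal. The level was 1.95-fold lower in Met-high (ratio -0.96, SE 0.16, adjusted p = 0.0353, limma). A second, dimmer probe gave -1.06, but it passed the filter through Met-low alone, so its direction is no independent result. Leaving out any of the 4 arrays kept the direction and ended the call, with adjusted p between 0.0617 and 0.116, as did testing without the filter on dim probes (0.172). Its paralogue Kdm5a, which acts on the same lysine, measured 0.66 and 0.53 in Met-low and -0.07 and -0.43 in Met-high (ratio -0.85, adjusted p = 0.0692, limma). The populations did not overlap in Kdm5a either, but it did not pass the threshold.

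Kdm7a (NM_001033430), a demethylase of the repressive marks on H3K9 and H3K27, had the lowest calculated ratio of the members, though that ratio rests on signals near background. It measured -3.57 and -4.56 in Met-low and -5.12 and -6.43 in Met-high, where it was not well above background on either array. With the lowest signal that counts as well above background in place of its Met-high values, it was 2.05-fold lower in Met-high. The calculated ratio was -1.71 (adjusted p = 0.127, limma). With the normexp background correction the ratio was -0.49 (adjusted p = 0.332, limma), so 2.05-fold is not a lower bound under every correction. That ratio was also smaller in size than those of Arid4a (-0.75) and Kdm5b (-0.86) under the same correction. The 2 Met-high arrays were 1.31 apart, so the gene was dim and noisy there, although a second probe gave -1.64. Both probes of Kdm7a passed the filter through Met-low alone, so the direction of neither is an independent result. The adjusted p was 0.0318 without Met-low replicate 2 and 0.0084 without Met-high replicate 1, but since the Met-high values were not well above background neither counts as a call. At the other end Kdm8 measured -0.57 and -0.56 in Met-low and -0.07 and -0.01 in Met-high (ratio 0.52, adjusted p = 0.118, limma), so the populations were apart but the gene was not called. Kdm6a and Kdm6b, demethylases of H3K27, had ratios of -0.30 (95% interval -0.94 to 0.34) and -0.25 (-0.92 to 0.43).

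Genes grouped here as methyltransferases of H3K4 had the lowest median of all role groups, -0.72 over 6 genes. Of these 4 had a lower mean in Met-high, against 40.5% of all genes, 2 had a higher one and none was called. Kmt2e (-0.77) and Setd7 (-0.67) lay nearest the median, and the enzyme activity of the gene products was not measured. Kmt2c (NM_001081383), a methyltransferase that acts at enhancers, measured -0.35 and -0.91 in Met-low and -1.47 and -1.80 in Met-high. It was 2.01-fold lower in Met-high with no overlap of the arrays, but missed the threshold (ratio -1.01, SE 0.25, adjusted p = 0.0843, limma). Without Met-low replicate 2 its adjusted p was 0.0354. Its paralogue Kmt2d measured -1.67 and -2.62 in Met-low and -2.53 and -3.58 in Met-high (ratio -0.91, adjusted p = 0.279, limma). In both populations the Kmt2d arrays were about as far apart as the means, so the difference did not exceed the spread. Replicate 1 was the higher array in both populations, but the samples were not taken as paired. Setd1a, the catalytic subunit of a complex that marks promoters, measured 0.90 and 0.53 in Met-low and 1.33 and 1.25 in Met-high (ratio 0.57, adjusted p = 0.147, limma). Kmt2b also had a positive ratio, 0.53, with a 95% interval from -0.24 to 1.30.

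The 7 methyltransferases of other histone lysines were split 3 to 4, with a median of 0.03. Ezh2 (NM_007971), the catalytic subunit of Polycomb repressive complex 2, measured 2.75 and 2.91 in Met-low and 2.84 and 2.89 in Met-high. Its paralogue Ezh1 measured 2.87 and 2.82 in Met-low and 2.96 and 2.85 in Met-high. The populations overlapped in both genes, with ratios of 0.03 (95% interval -0.37 to 0.44) for Ezh2 and 0.06 (-0.33 to 0.46) for Ezh1, and both signs turned negative under quantile normalization (-0.10 and -0.09). These intervals leave out a 2-fold difference in either direction. Setd2, which writes trimethylation of H3K36 in transcribed genes, measured 0.53 and 0.73 in Met-low and -0.30 and 0.13 in Met-high (ratio -0.71, adjusted p = 0.12, limma). Kmt5c, a methyltransferase of H4K20, measured 1.88 and 1.68 in Met-low and 2.55 and 2.07 in Met-high (ratio 0.53, adjusted p = 0.204, limma). Neither gene was called, though the arrays of the populations did not overlap in either. The 4 other SET domain genes ran from -0.17 (Setd4) to 0.59 (Setd6), and none was called.

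Acetyltransferases held 1 called gene, Kat6b, the lowest of the 8. The median of the group was 0.29 and 5 had a higher mean in Met-high, against 59.5% of all genes. Kat6b (NM_017479), an acetyltransferase of the MYST family also called MORF, measured -2.70 and -2.98 in Met-low and -3.81 and -3.84 in Met-high. It was 1.98-fold lower in Met-high, with no overlap (ratio -0.99, SE 0.18, adjusted p = 0.0419, limma). The call was lost without Met-low replicate 1 (adjusted p = 0.136), Met-high replicate 1 (0.0611) or Met-high replicate 2 (0.0848), and with the normexp background correction (ratio -0.44, adjusted p = 0.208), quantile normalization (0.0762), no filter on dim probes (0.188) or a mean-variance trend (0.0673). Its paralogue Kat6a overlapped between the populations, at 0.19 and 0.40 in Met-low and -0.17 and 0.38 in Met-high (ratio -0.19, 95% interval -0.78 to 0.40). Kat2a, also called GCN5, had the highest ratio of the group, 0.50 (adjusted p = 0.174, limma), and its paralogue Kat2b had -0.18 (95% interval -0.71 to 0.35). Kat5, also called TIP60, measured 1.93 and 1.83 in Met-low and 2.18 and 2.22 in Met-high (ratio 0.32, adjusted p = 0.265, limma).

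Genes of the deacetylase family, named for taking acetyl groups off histones, had a median of 0.26. The mean was higher in Met-high in 8 of 10, against 59.5% of all genes, but none was called. Hdac7 (NM_001204276), a class IIa deacetylase, measured 0.18 and -0.26 in Met-low and 0.94 and 0.73 in Met-high. It was 1.83-fold higher in Met-high with no overlap but did not pass the threshold (ratio 0.87, SE 0.21, adjusted p = 0.0795, limma). Hdac8, a class I enzyme encoded on the X chromosome, had the lowest ratio of the group, at -2.55 and -2.37 in Met-low and -2.94 and -3.26 in Met-high (ratio -0.64, adjusted p = 0.118, limma). The class I pair Hdac1 and Hdac2, which share corepressor complexes, had ratios of 0.16 (95% interval -0.30 to 0.62) and -0.06 (-0.56 to 0.44), and the sign of Hdac2 turned under quantile normalization (0.07). Both overlapped between the populations.

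**Figure D2:**
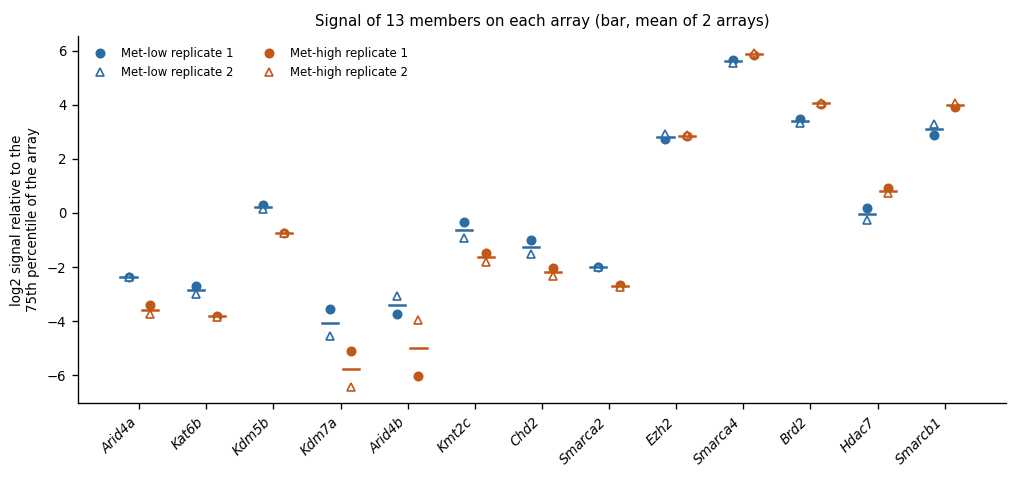
The log2 signal relative to the 75th percentile of the array (y axis) of 13 members on each array, with a bar at the mean of 2 arrays. Blue marks Met-low and orange Met-high, filled circles replicate 1 and open triangles replicate 2. In Kdm5b both Met-high points sit at -0.75 below 0.13 and 0.29 in Met-low, while the points of Ezh2 overlap.

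SWI/SNF subunits had a median of 0.27, with 9 of 12 higher on average in Met-high, against 59.5% of all genes, and none called. Smarcb1 (NM_011418), a core subunit also called SNF5 or BAF47, had the highest ratio of all 88 members. It measured 2.90 and 3.31 in Met-low and 3.94 and 4.08 in Met-high, so that both Met-high arrays lay above both Met-low arrays. The level was 1.87-fold higher in Met-high, but it missed the threshold (ratio 0.90, SE 0.20, adjusted p = 0.0683, limma), and passed it with a mean-variance trend (0.036). The 2 ATPases of the complex, of which each complex holds one, differed in sign. Smarca2 (NM_026003), or BRM, measured -1.997 and -2.01 in Met-low and -2.68 and -2.74 in Met-high (ratio -0.71, SE 0.15, 95% interval -1.10 to -0.32, adjusted p = 0.0639, limma). Smarca4 (NM_001174078), or BRG1, measured 5.65 and 5.56 in Met-low and 5.86 and 5.92 in Met-high (ratio 0.28, SE 0.16, 95% interval -0.11 to 0.67, adjusted p = 0.312, limma). Neither ATPase gene overlapped between the populations, and neither passed the threshold. The 95% intervals of the ratios did not overlap each other, but the difference between the 2 genes was not tested. With the percentile taken over detected probes, Smarca2 had an adjusted p of 0.0429.

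Arid1a, the large DNA-binding subunit of the same complex, measured 1.48 and 0.30 in Met-low and 1.36 and 0.27 in Met-high. Within each population its 2 arrays were over 2-fold apart, and the ratio of -0.08 had a 95% interval from -1.38 to 1.23. Arid1b, its alternative in the complex, had a ratio of 0.17 (-0.61 to 0.95) and arrays 0.61 and 0.62 apart. Chd1, Chd5 and Kmt2d, chosen after their values were seen, had gaps of 0.92 to 1.21 between the arrays of a population. In each of these genes replicate 1 was the higher array in both populations, so for them the precision was set by the spread between replicates.

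Other ARID proteins held the third called gene. Arid4a (NM_001081195), which binds the retinoblastoma protein and belongs to a SIN3 corepressor complex, measured -2.35 and -2.37 in Met-low and -3.42 and -3.73 in Met-high. It was 2.32-fold lower in Met-high with no overlap (ratio -1.21, SE 0.18, adjusted p = 0.0277, limma), the only member both called and past 2-fold. A second probe gave -1.01. Without Met-low replicate 1 and without Met-high replicate 2 the adjusted p was 0.0503 in each case, with the normexp background correction it was 0.0635, without the filter on dim probes it was 0.141, and over all alternatives it ran from 0.00954 to 0.141. Its paralogue Arid4b measured -3.73 and -3.08 in Met-low and -6.02 and -3.98 in Met-high, where only 1 of its 2 arrays was well above background. The calculated ratio of Arid4b was -1.60 with a 95% interval from -3.30 to 0.11 (adjusted p = 0.212, limma), and -0.63 was the ratio with the normexp background correction. Without Met-high replicate 2 the adjusted p was 0.00195, but that fit keeps only the Met-high array that was not well above background, so it does not count as a call. Arid3b had the highest ratio of the 5, 0.59 (adjusted p = 0.106, limma).

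Arid4a, Arid4b, Kdm7a and Kmt2c were the 4 members past 2-fold, all lower in Met-high, which is 4.55% of the members against 5.29% of all genes. Arid4b and Kdm7a had passed the filter through Met-low alone, which fixed their direction, and with the filter on all 4 arrays 2 members were past 2-fold, while with the normexp background correction 0 were. No member was past 2-fold in the other direction, against 2.43% of all genes. With Met-low replicate 2 left out 9 members were past 2-fold lower in Met-high, and with Met-high replicate 1 left out 8 were. Without Met-low replicate 1, Met-low replicate 2 or Met-high replicate 2, 1 member was past 2-fold higher in Met-high.

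CHD remodellers, which carry paired chromodomains, had a median of -0.32. The Met-high mean was lower in 5 of 8, against 40.5% of all genes, and none was called. Chd2 (NM_001081345) measured -0.99 and -1.50 in Met-low and -2.05 and -2.32 in Met-high (ratio -0.94, SE 0.23, adjusted p = 0.0835, limma). Its other 2 probes gave -1.24 and -1.39, so all 3 probes were lower in Met-high, and without Met-low replicate 2 the adjusted p was 0.0436. Chd4, the ATPase of the NuRD complex, had a ratio of 0.17 (95% interval -0.32 to 0.66). Chd6 was the only member whose probes had opposite signs and lay over 1 apart. Its brighter probe measured -2.97 and -2.89 in Met-low and -1.79 and -2.78 in Met-high (ratio 0.64, adjusted p = 0.297, limma). Its other probe measured -3.74 and -3.83 in Met-low and -4.34 and -5.14 in Met-high (ratio -0.95), and only 1 of its 2 Met-high arrays was well above background. No direction can be given for Chd6: the mean of its probes gave -0.16, and without Met-high replicate 2 the brighter probe gave 1.14 with an adjusted p of 0.0363. Of the other SMARC and ISWI genes, Smarcad1 had a ratio of -0.49 (adjusted p = 0.185, limma), the ISWI ATPase gene Smarca5 -0.29 (95% interval -0.90 to 0.31) and Smarcal1 0.07. The pseudogene Smarca5-ps had -0.50, and since its probe may share sequence with Smarca5 this value is uncertain.

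Bromodomain readers were near 0 as a group, with 4 of 7 higher in Met-high and a median of 0.02. Brd2 (NM_001204973), a BET protein, measured 3.47 and 3.35 in Met-low and 4.05 and 4.09 in Met-high. It was 1.58-fold higher in Met-high with no overlap but did not pass the threshold (ratio 0.66, SE 0.16, adjusted p = 0.0766, limma, and 0.0402 with a mean-variance trend), and a second probe gave 0.41. Brd8 had the lowest ratio of the group, -0.23 (adjusted p = 0.482, limma).

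**Figure D3:**
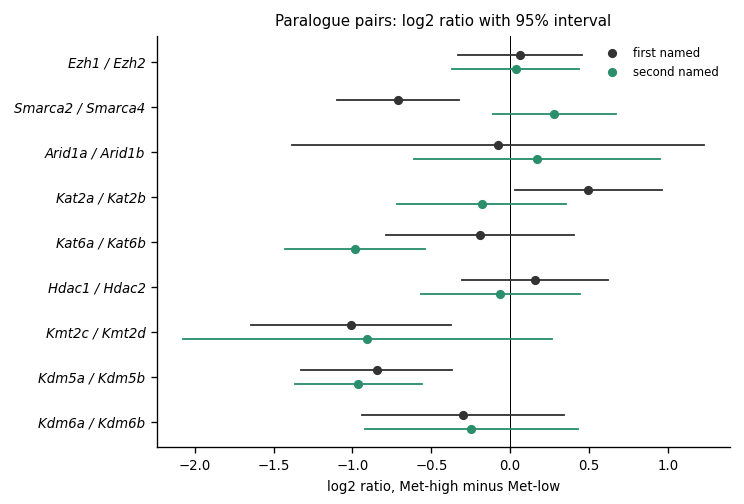
The log2 ratio (x axis, Met-high minus Met-low) of both genes of 9 paralogue pairs with its 95% interval, the first named gene in grey and the second in green. Smarca2 lies at -0.71 and Smarca4 at 0.28, while Kdm5a and Kdm5b both lie below -0.80.

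Of 13 paralogue pairs compared, 9 had both genes measured. In 4 of these the genes had opposite signs: Smarca2 and Smarca4, Arid1a and Arid1b, Kat2a and Kat2b, and Hdac1 and Hdac2. Of these genes, only Smarca2 and Kat2a had a ratio whose interval kept a single sign. Under quantile normalization Hdac1 (0.007) and Hdac2 (0.07) had the same sign. The other probes of Arid1a (0.05) and Arid1b (-0.54) had signs opposite to the brightest probe. That of Arid1b passed the filter through Met-low alone. Opposite signs were thus not settled for Arid1a with Arid1b or Hdac1 with Hdac2. In 4 pairs, Kdm5a with Kdm5b, Kmt2c with Kmt2d, Kat6a with Kat6b and Kdm6a with Kdm6b, both genes had a lower mean in Met-high, and in Ezh1 with Ezh2 both had a higher one, whose signs turned under quantile normalization. No difference within a pair was tested.

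Probes gave a check within the arrays, though not of the cultures. Of 31 members with several probes past the filter, 23 had all probes in a single direction and 8 had probes in both. The 38 other probes differed from the brightest probe of their gene by a median of 0.18 in size. In Arid4a, Chd2 and Brd2 each other probe had the sign of the brightest. So did those of Kdm5b and Kdm7a, but these passed the filter through Met-low alone, so their direction is no independent check. The counts of 23 and 8 both include such probes. In Arid1b and Chd6 the probe with a sign opposite to the brightest was of that kind. In Kmt2e, chosen after its values were seen, the probes gave -0.77 and -1.55. The remaining 57 members rested on 1 probe.

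**Figure D4:**
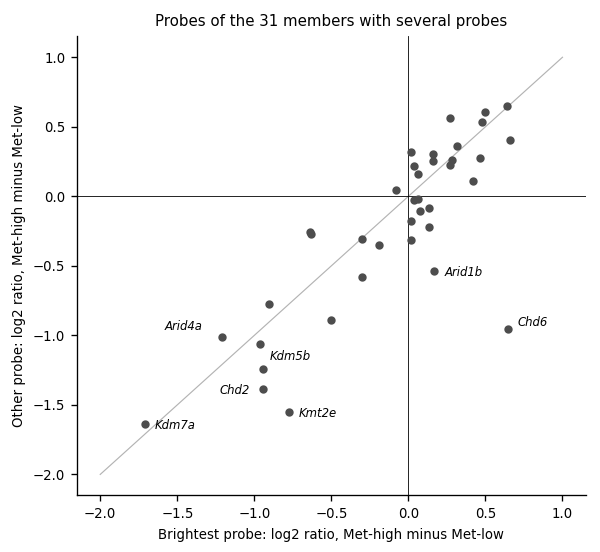
The log2 ratio of each of 38 other probes (y axis) against that of the brightest probe of the same gene (x axis), both Met-high minus Met-low, for 31 members. Most points lie near the grey line of equal ratios, and Chd6 lies off it at 0.64 and -0.95.

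Longer genes had lower ratios. Length here is the span of the gene on the genome in the RefSeq table of GRCm38.p6. Across the 88 members the rank correlation of the ratio with length was -0.51, given as a description across genes that share the same 4 arrays. Across all genes it was -0.19. Among the 29 shortest members, from 3.75 to 31.4 kb, 22 had the higher mean in Met-high with a median of 0.42. All genes in that band, which had no lower limit for them, had a median of 0.15. Among the next 29, from 31.8 to 71.2 kb, 16 had the higher mean there, with a median of 0.03, against 0.05. Among the 30 longest, from 72.7 to 353 kb, 20 had the lower mean in Met-high with a median of -0.24, against -0.07. Of all genes in that band, which had no upper limit for them, 56.5% had the higher mean in Met-low, against 34.9% in the band of the shortest. All 3 called members and Kmt2c were among the 30 longest. Members were also longer than the rest, with a median of 46.2 kb against 21.7 kb over all genes. The ratio moved with brightness as well, with a rank correlation of 0.40 with the mean signal in the members and 0.18 in all genes. The correlation with length stayed between -0.57 and -0.39 when each array was left out in turn, a check chosen after seeing the data. The part of length and of brightness in the ratios above was not tested.

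**Figure D5:**
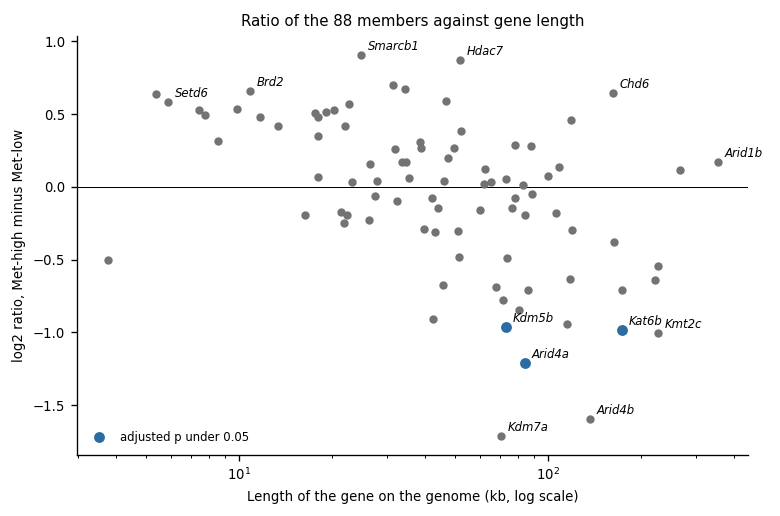
The log2 ratio (y axis, Met-high minus Met-low) of the 88 members against the length of the gene in kb (x axis, log scale), with the 3 called members in blue. Members up to 31.4 kb long have a median of 0.42 and those from 72.7 kb a median of -0.24.

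Partner genes of the same complexes that the symbol rule does not take were listed beside the members: Polycomb proteins, other methyltransferases and demethylases, other acetyltransferases, deacetylase complexes and sirtuins, SWI/SNF subunits, and further remodellers. Of 103 listed, 98 passed the filter. Among those 98, 38 had a lower mean in Met-high and 60 a higher one, against 59.5% of all genes, with a median of 0.13. Of these, 2 were called lower and 1 was called higher in Met-high, against 3.8% and 1.93% of all genes. Atrx, a remodeller encoded on the X chromosome that deposits the histone variant H3.3 together with Daxx, measured -1.10 and -1.14 in Met-low and -3.62 and -3.35 in Met-high (ratio -2.36, SE 0.17, adjusted p = 0.0067, limma). That is the lowest ratio among members and partners, and the populations were far apart compared with the replicates. Daxx, chosen after its values were seen, measured 1.84 and 1.80 in Met-low and 2.60 and 2.54 in Met-high (ratio 0.75, adjusted p = 0.0565, limma). Baz2b, a bromodomain gene related to the ISWI partners, was the other lower gene, at -0.95 and -0.81 in Met-low and -2.34 and -2.12 in Met-high (ratio -1.35, adjusted p = 0.0190, limma).

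Phf19, a Polycomb-like protein that brings Polycomb repressive complex 2 to chromatin, was the gene called higher. It measured -0.67 and -0.49 in Met-low and 0.92 and 1.02 in Met-high (ratio 1.55, SE 0.16, adjusted p = 0.0127, limma), while Ezh2 and Ezh1 in the same complex overlapped. Of 24 Polycomb genes measured, 17 had the higher mean in Met-high, against 59.5% of all genes, and the median was 0.26, against 0.10. Pbrm1, a SWI/SNF subunit, and Ash1l, a methyltransferase, were also past 2-fold lower in Met-high. Pbrm1 measured -0.69 and -1.59 in Met-low and -1.53 and -2.94 in Met-high (ratio -1.10, adjusted p = 0.264, limma), and Ash1l -1.81 and -1.46 in Met-low and -2.71 and -2.55 in Met-high (ratio -1.0002, adjusted p = 0.0505, limma). The arrays overlapped in Pbrm1 and not in Ash1l.

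Of 9 listed genes of cycling cells, 8 had the higher mean in Met-high, against 59.5% of all genes. The median ratio over the list was 0.63, and 1 gene was called. Mcm5, a subunit of the replicative helicase, was the called gene, at 3.88 and 4.05 in Met-low and 4.84 and 5.10 in Met-high (ratio 1.01, adjusted p = 0.0416, limma). Mki67 was the exception, with a ratio of -1.69 (adjusted p = 0.189, limma). The part of cell cycling in the ratios of the chromatin genes was not tested.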

How the data were processed

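RNA from 2 Met-low and 2 Met-high samples was measured on 1-colour arrays. The authors deposited the scanner output, with a background-corrected Cy3 intensity per spot, flags and well-above-background marks, and a table of log2 values. The labels name Agilent Feature Extraction 10.7.3.1 and the file headers 11.0.1.1. Set against the scanner values, the deposited log2 table held the same values scaled to the 75th percentile and centred per probe (slopes 0.999 to 1.001, with 93.5% of 39297 probes within 0.01 on Met-low replicate 2 and 100% on the other arrays, column medians -0.117 to 0.149), and its direction followed from that match.

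The intensity was floored at 0.01 (0 spots changed), log-transformed (base 2), and the 75th percentile of its array (858 to 1331) was subtracted on that scale. Flagged spots, 207 to 232 an array, were left out, and spots of a probe were averaged. The accessions of 27427 of 39429 probes matched 1 symbol in the RefSeq table of GRCm38.p6, and 12002 matched none and were left out. The headers of the scanner output name another build, so no gene position was taken from them, and gene lengths came from the RefSeq table. The probe with the highest mean stood for its gene.

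All 11957 genes that passed were fitted with lmFit and eBayes (limma 3.58.1, R 4.3.3), 2 arrays against 2, two-sided, with Benjamini-Hochberg adjustment over all of them. The methods' 2-fold selection was counted without a test. The p-values rest on the spread between 2 samples a population, and the number of arrays limits the precision. A permutation of 2 against 2 cannot give a p under 0.05, so none is given. With 1 array left in a population, it was assumed to vary like the other population. Alternatives were a normexp correction (offset 50), quantile normalization, the percentile over detected probes, no or a stricter filter, the mean of probes, flagged spots kept, the authors' values, a mean-variance trend, a replicate block, a 2-fold threshold beside the adjusted p, and each array left out.

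Genes named are members called, past 2-fold or with opposed probes, the highest and lowest of each role, listed genes and paralogues, and partner genes called or past 2-fold. One gene that this rule gave is not reported here. The members, lists and rules were chosen with earlier results of these data known. The fit was tested on simulated data with independent noise and changes larger in size than any ratio of a member. Recovery of changes as small as those of the members was thus not tested. Tables and figures used pandas 2.3.3, numpy 2.4.6, scipy 1.17.1, matplotlib 3.10.9 and Python 3.11.15.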

Additional observations from a re-analysis of the deposited data

How the results depend on the processing

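The count of members called lower in Met-high, 3 as reported, was 1 with the normexp background correction, 5 with the percentile over detected probes, 0 with no filter on dim probes, 1 with a 2-fold difference asked for as well, and 0 to 5 with an array left out. The count called higher, 0 as reported, was 1 with normexp, 3 with the mean-variance trend and 0 to 1 with an array left out. Members past 2-fold lower in Met-high, 4 as reported, were 0 with normexp, 8 with the percentile over detected probes, 2 with the filter on all 4 arrays, 7 with the mean of the probes and 3 to 9 with an array left out, and those past 2-fold higher were 0 to 1. The median ratio was -0.11 with the percentile over detected probes, which moved the median of all genes from 0.10 to -0.05, and -0.0578 to 0.107 with an array left out. Partner genes called lower, 2 as reported, were 0 with no filter, and those called higher, 1 as reported, were 2 with normexp, 3 with the trend and 0 with no filter.

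Signs turned in Ezh1 (-0.0578 with normexp, -0.0886 with quantile normalization, -0.0835 with the percentile over detected probes), Ezh2 (-0.10 with quantile normalization, -0.11 with the percentile), Hdac2 (0.0728 with quantile normalization), Smarcal1 (-0.0708 with the percentile, -0.0149 with the mean of the probes) and Chd6 (-0.16 with the mean of the probes). With an array left out, the ratio ran from -0.0438 to 0.114 in Ezh2, -0.23 to 0.10 in Hdac2 and -0.0156 to 0.163 in Smarcal1. The cause was not tested.

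With the replicate number as a block, 20 members were called lower and 18 higher in Met-high (43.2% of the members, against 29.7% of all genes), the 3 reported calls among them, and 11 partner genes were called lower and 20 higher. The deviations of same-numbered arrays correlated at 0.54, but the labels do not say what a number marks and there are only 2 pairs, so the samples were not taken as paired. With 1 slide and 1 scan, neither could be used as a block.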
